A study of Mus musculus with 24 samples.

Results

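Mof knockout was compared with wild type in mouse embryonic fibroblasts (MEFs) that had been given Adriamycin. The comparison holds 3 knockout and 3 wild-type samples, 6 of the 24 samples of the series, and the authors' deposited table for it lists 43626 genes. No gene was chosen for its values: every row of that table is a member. Both groups were at passage 2, grown in DMEM with serum and antibiotics, and received 0.1 µg/ml Adriamycin for 24 h soon after passaging. A second pair of MEF groups, again 3 knockout and 3 wild-type samples at passage 2, received the vehicle (DMSO), and its table is used below only to show where the knockout effect differed between the drug conditions. The other samples of the series are podocytes and were not used. The labels name the genotype as wild type or knockout and give no allele, Cre, strain or embryo of origin, so how and when these cells lost Mof is not stated there.

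MOF is the protein of Kat8, a histone acetyltransferase of the MYST family that acetylates lysine 16 of histone H4 within the MSL complex and acts on promoters of broadly expressed genes within the NSL complex. Adriamycin, or doxorubicin, is an anthracycline that intercalates into DNA and traps topoisomerase II on broken strands, which activates p53 and stops the cell cycle. Fibroblasts are cells of connective tissue that secrete collagen and other matrix proteins and pull on that matrix with actin fibres.

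The table gives, for each gene, the mean count over its 6 samples after division by size factors, a log2 fold change with its standard error (SE), and a DESeq2 p. It holds no value per sample, so the level of a gene in each sample, an SD and the depth of each library cannot be shown, and the SE is the measure of precision. Whether the 3 samples of a group came from separate cultures is not in the labels, so each p reflects sample-to-sample spread that may be technical only. Of the 43626 genes, 16188 had no read, 6 had a fold change without a p, 13293 had a p but lay below the authors' filter on low counts, and 14139 were tested. The lowest mean count among tested genes was 13.9. A gene is called changed, higher or lower when its adjusted p was below 0.05. Fold changes are knockout over wild type, a direction read from the negative sign of Kat8. Markers of fibroblasts were all tested, 17 of 17, with summed mean counts of 359897. Markers of macrophages and leukocytes summed to 6528, of endothelium to 1477, of epithelium to 3933, of skeletal muscle to 3039, of nerve and glia to 2563, and of fat, cartilage and bone to 3931. The 6 blood markers summed to 6.24, with 2 of them at 0.

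Kat8 was lower in the knockout. The authors' deposited table placed it at -1.71 ± 0.16 (SE) on the log2 scale (adjusted p 2.84e-25, DESeq2), which is 30.5% of the wild-type level. Since the direction was taken from this gene, its value does not test the labels. No label states which part of Kat8 was deleted, so the remaining reads do not measure remaining protein. Kat8 lies on chromosome 7 (127912516 to 127925837, GRCm38), and 33 tested genes lie within 500 kb of it. Of these, 5 were higher and 2 lower, with a median log2 fold change of 0.05. Prss8, which lies antisense to Kat8 and overlaps it, had a mean count of 0.34, too low to be tested.

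The partners of MOF moved little. None of the 3 tested MSL subunit genes passed the threshold. Among 8 NSL genes, Kansl2 alone was higher, at 0.28 ± 0.09 in the authors' deposited table. Hcfc1, a cofactor shared with other chromatin complexes, was at -0.23 ± 0.10 with an adjusted p of 0.0507 from DESeq2 in the authors' deposited table. Among the other MYST genes, Kat6a was lower by a small amount (-0.33 ± 0.11, authors' deposited table), and Kat5, Kat7 and Kat6b did not pass.

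About 1 gene in 3 was called. Of the 14139 tested genes, 4622 changed (32.7%), 2342 of them higher (16.6%) and 2280 lower (16.1%). Most changes were small. The median absolute log2 fold change among changed genes was 0.51, and 88.0% of them moved by less than 2-fold. At 2-fold or more, 342 genes were higher (2.42%) and 212 lower (1.5%). The balance of directions rests on the scaling. The median log2 fold change was -0.02 over all tested genes but 0.07 over the 4609 tested genes whose mean count reached 1000. With fold changes centred on that second median, 1772 genes were higher and 3014 lower, so that 37.0% of changed genes were higher instead of 50.7%. Of the counts per gene list and direction, this centring lowered 20 and raised 22 by over 1.5 times. It is given beside those that moved by at least 3 genes. Of the genes named here, Kansl2, Tfe3, Eef1a1, Vars, Mdm2, Ccng1, Bcl2l1, Bbc3 and Dcn no longer passed under it. Hcfc1 and Ankrd1, which did not pass otherwise, passed as lower under it, at -0.31 and -0.52. The genes named were picked by a rule given with the processing, and other list members, including defining members that did not pass, were added after their values were seen.

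The gene that stood apart was Esr1, the oestrogen receptor alpha (chromosome 10, 4611593 to 5005614). Its log2 fold change in the authors' deposited table was 5.73 ± 0.15, a 53.1-fold difference, at a mean normalized count of 1514. With vehicle it was at 7.11 ± 0.21 in the authors' deposited table, and the difference passed (adjusted p 8.61e-06). The labels name no construct, and reads of the gene itself cannot be told apart from reads of a transgene with Esr1 sequence. Next by Wald statistic came Dpp7, a lysosomal dipeptidyl peptidase, at 1.28 ± 0.09 in the authors' deposited table, with Uap1l1, a paralog of a nucleotide-sugar enzyme, at 1.53 ± 0.11, and the stress transcription factor gene Ddit3 at 1.50 ± 0.11. The cathepsin gene Ctsl (1.03 ± 0.08) and the autophagy receptor gene Sqstm1 (0.95 ± 0.08) followed in the authors' deposited table, as did Grem1, a secreted BMP antagonist, at 1.55 ± 0.14, and Npc2, a lysosomal cholesterol carrier, at 0.88 ± 0.08. Of the genes named in this paragraph, 4 (Dpp7, Ctsl, Sqstm1 and Npc2) encode proteins of the lysosome or of the path that feeds it. Not every gene of these ranks is named. Vat1 (0.86) and Grina (0.90), for example, lay among them, so the 4 give no share of the leading genes.

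Among the genes that led in the other direction, after Kat8 came Ly75, an endocytic receptor gene, at -1.20 ± 0.11 in the authors' deposited table, and Lrrc17, a secreted leucine-rich repeat protein, at -1.01 ± 0.10. The cyclic AMP phosphodiesterase gene Pde4d (-1.35 ± 0.14), the LIM-domain gene Fhl1 (-0.61 ± 0.07) and the GTPase-activating gene Dlc1 (-0.67 ± 0.07) were lower in the authors' deposited table. Abi3bp, a matrix glycoprotein gene, was lower by more, -2.56 ± 0.29 in the authors' deposited table, against -1.21 ± 0.14 for Ccdc80 and -0.87 ± 0.10 for the collagen gene Col12a1. In the authors' deposited table the mitochondrial aspartate and glutamate carrier gene Slc25a12 was at -1.34 ± 0.16, and the transition zone gene Tctn2 of the primary cilium at -1.35 ± 0.15.

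**Figure D1:**
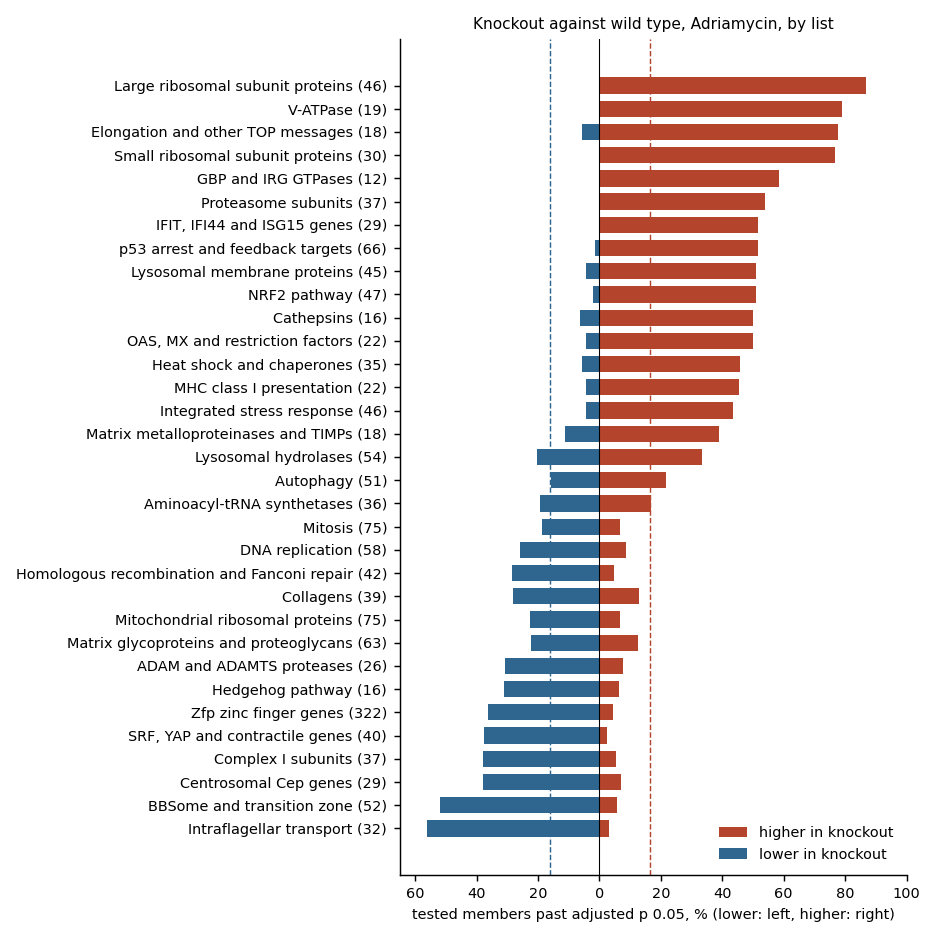
Share of the tested members of 33 gene lists that passed an adjusted p of 0.05, with members higher in knockout drawn to the right in red and lower to the left in blue, and the number of tested members in brackets. The dashed lines mark the shares over all tested genes, 16.6% higher and 16.1% lower; ribosomal protein, V-ATPase and other lysosomal lists reach far past the right line, and the cilium lists past the left line.

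The lysosome is the acid compartment in which cells digest protein, lipid and sugar chains. A proton pump, the V-ATPase, acidifies it, membrane proteins shield it, and cathepsins and other hydrolases do the digestion. Transcription factors of the TFEB and TFE3 family are known to switch on many of its genes through a motif that contains CACGTG. Across 4 lists, 64 of 134 tested lysosomal genes were higher and 14 lower, with a median log2 fold change of 0.29, against -0.02 over all tested genes.

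The V-ATPase was the most uniform of these lists. Of its 19 tested genes 15 were higher and none lower, with a median of 0.49. The subunit genes Atp6v1b2 (0.73 ± 0.10), Atp6v0d1 (0.70 ± 0.09), Atp6v1h (0.59 ± 0.09) and Atp6v1a (0.51 ± 0.10), which cover both the outer catalytic part and the membrane part of the pump, all rose in the authors' deposited table. The 2 accessory genes Atp6ap2 and Atp6ap1 rose as well, by 0.89 ± 0.13 and 0.48 ± 0.08 in the authors' deposited table. The 4 genes that did not pass were Atp6v0a1, Atp6v0a2, Atp6v0e2 and Atp6v1g2. With vehicle 16 of the 19 were higher and none lower.

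Cathepsins and their inhibitors held 8 higher genes and 1 lower among 16. Ctsl, Ctsb (0.83 ± 0.10) and Ctsd (0.52 ± 0.07), which encode the main endopeptidases of the lysosome, rose in the authors' deposited table, while Ctsc fell (-0.49 ± 0.17). Among 54 other hydrolases and their helpers the directions were mixed, with 18 higher and 11 lower and a median of 0.13. The sialidase gene Neu1 (1.10 ± 0.11), the alpha-galactosidase gene Gla (1.04 ± 0.11) and the hexosaminidase gene Hexa (0.64 ± 0.10) rose in the authors' deposited table. The acid phosphatase gene Acp2 (-0.74 ± 0.11), the chitobiase gene Ctbs (-0.98 ± 0.18) and Sumf1 (-0.49 ± 0.09), which activates the sulfatases, fell in the authors' deposited table. Membrane and associated proteins of the organelle rose in 23 of 45 cases and fell in 2. Gpnmb led them at 1.50 ± 0.14, followed in the authors' deposited table by Tmem55b (0.87 ± 0.09), Lamp1 (0.49 ± 0.06) and the calcium channel gene Mcoln1 (0.63 ± 0.11). Among the transcription factors themselves, Tfe3 was at 0.31 ± 0.12 (adjusted p 0.0430, DESeq2) in the authors' deposited table, and Tfeb (-0.10 ± 0.22) and Mitf (0.16 ± 0.20) did not pass.

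**Figure D2:**
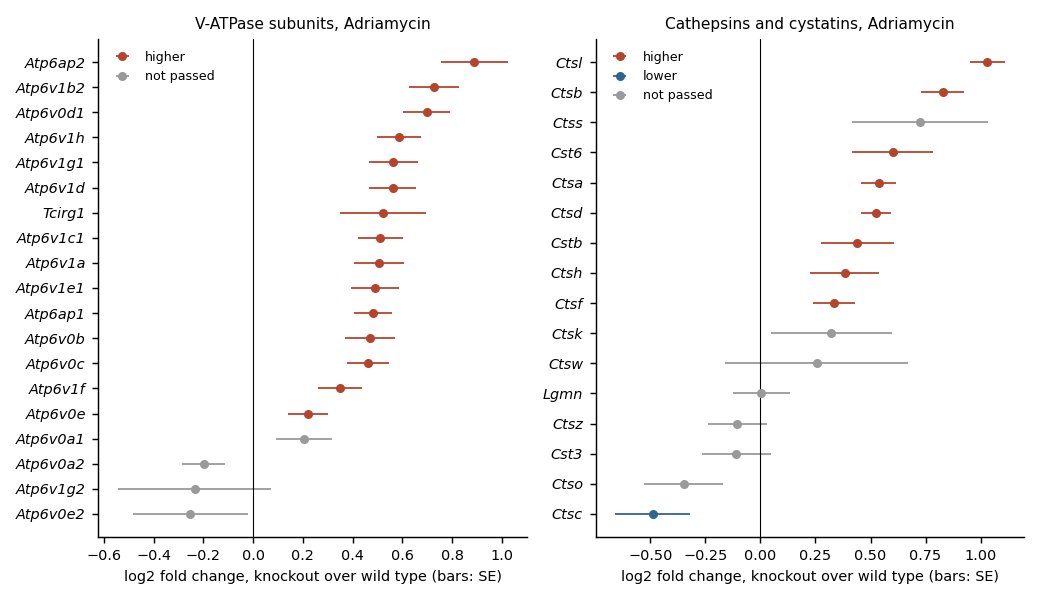
Log2 fold change (knockout over wild type, with Adriamycin) of each tested V-ATPase gene, left, and each tested cathepsin or cystatin gene, right; bars are the SE of the authors' deposited table, red marks a higher gene, blue a lower gene and grey a gene that did not pass. The 15 V-ATPase genes in red lie between 0.22 and 0.89, a narrower band than the 8 cathepsin genes in red.

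Promoter sequence was searched for the known motif, and the lysosomal genes shown are ones that hold a match. They are not the leading genes as such: the windows of Npc2, Neu1 and Hexa held no match. RefSeq promoter windows of GRCm38.p6, 250 bases before to 50 after the start, were matched to 10000 of the 14139 tested genes. The letters TCACGTG, on either strand, occurred in 3.77% of all windows and in 6.94% of those of tested genes, in 10.9% of the windows of higher genes and in 4.56% of those of lower genes. They occurred in 9 of 45 windows of hydrolases, 9 of 36 of membrane proteins, 4 of 14 of V-ATPase genes and 3 of 11 of cathepsins. Of the genes with a match, 4 hydrolase genes were higher and 1 lower. In the other 3 lists 6, 4 and 2 were higher and 0 lower. The stretches around the matches are shown 5′ to 3′ on the strand of the gene, with the matched letters of either strand in capitals, for Dpp7 (chr2:25356359-25356445, minus strand), Gla (chrX:134601153-134601239, minus strand), Ctsd (chr7:142387879-142387965, minus strand), Lamp1 (chr8:13159105-13159160, plus strand), Mcoln1 (chr8:3500434-3500518, plus strand), Atp6v0b (chr4:117887330-117887388, minus strand) and Atp6v1a (chr16:44139344-44139430, minus strand). A match describes the letters of the window and does not show binding.
Dpp7: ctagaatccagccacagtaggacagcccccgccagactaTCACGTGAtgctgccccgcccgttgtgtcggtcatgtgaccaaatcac
Gla: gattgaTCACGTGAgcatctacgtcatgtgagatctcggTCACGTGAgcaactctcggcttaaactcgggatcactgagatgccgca
Ctsd: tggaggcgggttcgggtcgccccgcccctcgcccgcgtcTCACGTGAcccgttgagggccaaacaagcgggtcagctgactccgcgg
Lamp1: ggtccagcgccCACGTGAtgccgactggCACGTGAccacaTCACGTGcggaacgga
Mcoln1: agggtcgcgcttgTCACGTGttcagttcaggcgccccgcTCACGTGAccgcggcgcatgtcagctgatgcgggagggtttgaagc
Atp6v0b: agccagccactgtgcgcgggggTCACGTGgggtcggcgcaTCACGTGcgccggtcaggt
Atp6v1a: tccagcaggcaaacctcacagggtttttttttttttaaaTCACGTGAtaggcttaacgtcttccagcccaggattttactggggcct

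Autophagy genes, whose products deliver cargo to the lysosome, were called at shares not far from those of all tested genes (16.6% higher and 16.1% lower). Of 51 tested, 11 were higher (21.6%) and 8 lower (15.7%, or 13 genes under the centring), and 32 did not pass. Those higher in the authors' deposited table included Sqstm1, the ubiquitin-like genes Gabarap (0.65 ± 0.08) and Map1lc3b (0.61 ± 0.10), and the kinase gene Ulk1 (0.64 ± 0.13). Those lower included genes of the lipid kinase complex that starts the autophagosome, Pik3r4 (-0.48 ± 0.09) and Pik3c3 (-0.41 ± 0.11), and the scaffold gene Rb1cc1 (-0.48 ± 0.09) in the authors' deposited table. Endosomal sorting genes named Vps or Snx had 14 higher and 10 lower of 58, and Rab genes 13 higher and 11 lower of 50. The retromer genes Vps26a (0.71 ± 0.09) and Vps35 (0.39 ± 0.08) rose, as the authors' deposited table gives it, and the secretory Rab genes Rab3c (-2.05 ± 0.46) and Rab27a (-1.26 ± 0.30) fell.

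Ribosomal protein genes rose with few exceptions. Cells make them in equal numbers, and their messages share a 5′ terminal oligopyrimidine (TOP) tract through which mTOR controls translation. Of 76 tested genes of the cytosolic ribosome 63 were higher and none lower, but by small amounts, with a median of 0.27. For the large subunit the count was 40 of 46, and for the small subunit 23 of 30. The range ran from Rpl12, at 0.54 ± 0.09 in the authors' deposited table, down to genes near 0. With fold changes centred on abundant genes the counts were 26 and 13. Other TOP messages rose too, 14 of 18 with 1 lower, or 10 of 18 under that centring. In the authors' deposited table the poly(A)-binding protein gene Pabpc1 was at 0.58 ± 0.08, the elongation factor gene Eef1b2 at 0.39 ± 0.07, and the nucleolar chaperone gene Npm1 at 0.55 ± 0.11. Eef1a1, among the most abundant messages of these cells, moved by 0.18 ± 0.07 in the authors' deposited table.

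Translation factors of the Eif family had 18 higher and 6 lower members of 54, and 9 higher under the centring on abundant genes. Eif3b (0.46 ± 0.07), Eif6 (0.50 ± 0.09), Eif4g1 (0.36 ± 0.07) and Eif5a (0.45 ± 0.10) were higher in the authors' deposited table. Eif2a was lower (-0.51 ± 0.10, authors' deposited table). Host genes of small nucleolar RNAs, which are spliced from introns of TOP-type transcripts, were higher in 6 of 11 cases, among them Nop56 (0.61 ± 0.09), Snhg5 (0.59 ± 0.14) and Gas5 (0.36 ± 0.09) in the authors' deposited table. The mitochondrial ribosome leaned the other way. Of its 75 tested protein genes 5 were higher (6.67%) and 17 lower (22.7%, or 27 genes under the centring), against 16.6% and 16.1% of all tested genes. Mrps18c (-0.59 ± 0.12) and Mrpl3 (-0.47 ± 0.11) were among the lower and Mrps6 (0.75 ± 0.11) among the higher in the authors' deposited table. With vehicle 2 of these 75 were higher and 45 lower, with a median of -0.32 against -0.12 with Adriamycin. The difference between the drug conditions passed for 7 of them, all above 0.

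With vehicle, 8 of the 76 genes of the cytosolic ribosome were higher and 2 lower, with a median of 0.03. Over all 15605 genes tested with vehicle 17.8% were higher and 19.6% lower. The difference between the drug conditions, the knockout's log2 fold change with Adriamycin minus its value with vehicle, was tested gene by gene. It passed for 8 of the 76, all above 0, where 3.49% of all genes passed in that direction. Rpl12 was at 0.16 ± 0.07 with vehicle in the authors' deposited table, and its difference had an adjusted p of 0.0210. Npm1 (-0.02 ± 0.07 with vehicle) and Eif5a (-0.06 ± 0.07) differed as well, with adjusted p of 0.000620 and 0.00130, from the authors' deposited tables. For the other 68 genes the difference did not pass.

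Many genes of protein folding and protein degradation were higher too. The proteasome, which degrades ubiquitin-tagged proteins, had 20 higher and no lower genes of 37, or 12 and 3 under the centring. Psmb9, an interferon-induced subunit, led at 1.49 ± 0.28 in the authors' deposited table, and the constitutive genes Psma7 (0.51 ± 0.09), Psmd8 (0.49 ± 0.08) and Psmd2 (0.40 ± 0.07) rose less. Heat shock proteins and chaperones had 16 higher and 2 lower of 35, against 15 and 4 with vehicle. In the authors' deposited table Dnajb1 was at 0.87 ± 0.11, the HSP70 genes Hspa1a and Hspa1b at 0.96 ± 0.17 and 0.76 ± 0.15, and Hsp90aa1 at 0.53 ± 0.08. Hspa1a and Hspa1b are near-identical copies whose reads may be split between them, so their separate values are uncertain. The cytosolic HSP90 gene Hsp90ab1 rose by 0.45 ± 0.07 with Adriamycin and was at 0.09 ± 0.07 with vehicle in the authors' deposited tables, a difference that passed (adjusted p 0.00855). The matrix chaperone pair of the mitochondrion, Hspd1 (0.46 ± 0.11) and Hspe1 (0.56 ± 0.09), rose too in the authors' deposited table. The pair is transcribed in opposite directions from a shared start region. The heat shock element, searched as alternating units GAA, TTC and GAA each separated by any 2 bases, either strand, occurred in 0.603% of all windows, in 0.55% of those of tested genes and in 4 of 27 windows of the chaperone list, and the stretch of Hspd1 (chr1:55088019-55088111, minus strand) is shown with the match in capitals.
Hspd1: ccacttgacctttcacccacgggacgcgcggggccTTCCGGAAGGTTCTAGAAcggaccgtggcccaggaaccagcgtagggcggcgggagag

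Fibroblasts build stress fibres from actin and myosin, and SRF with its MRTF cofactors and YAP with TEAD are known to switch on genes of this apparatus under tension. Here 15 of 40 tested genes of that list were lower and 1 higher, with a median of -0.19. The focal adhesion gene Vcl (-0.60 ± 0.08), the YAP-binding gene Amotl2 (-0.71 ± 0.08), the smooth muscle actin gene Acta2 (-0.64 ± 0.15) and the non-muscle myosin gene Myh10 (-0.71 ± 0.22) fell in the authors' deposited table. Actn1 (-0.30 ± 0.07), Flna (-0.26 ± 0.07), Tagln (-0.39 ± 0.14) and the YAP target Cyr61 (-0.39 ± 0.11) fell by less. The transcription factor genes Srf (-0.26 ± 0.10) and Tead1 (-0.41 ± 0.09) were lower too in the authors' deposited table. The 1 higher gene was Des, the muscle intermediate filament gene, at 1.05 ± 0.15 in the authors' deposited table. Some defining members did not pass: Ctgf was at -0.27 ± 0.18, Ankrd1 at -0.44 ± 0.19 and Cnn1 at -0.13 ± 0.20. Under the centring on abundant genes Ankrd1 passed as lower.

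With vehicle the same list had 6 higher and 9 lower genes and a median of -0.02. The difference between drug conditions passed for 5 of the 40, 4 of them below 0 and 1 above 0. Over all genes it passed for 3.61% below 0 and 3.49% above 0. The median difference of the list was -0.17. Vcl was at -0.08 ± 0.08 with vehicle (difference, adjusted p 0.000189), Actn1 at -0.03 ± 0.05 (0.0275) and the focal adhesion gene Tgfb1i1 at 0.05 ± 0.08 (0.0173) in the authors' deposited table for vehicle. Outside the list Thbs1, the secreted adhesion protein thrombospondin and the lower gene of highest mean count (185180), showed the same: -0.76 ± 0.11 with Adriamycin and -0.09 ± 0.12 with vehicle in the authors' deposited tables (difference, adjusted p 0.00192). Sync, an intermediate filament partner, was at -1.09 ± 0.13 against -0.05 ± 0.16 (5.11e-05), and Fhl1 at -0.61 ± 0.07 against -0.24 ± 0.10 (0.0293), in the authors' deposited tables. So the genes of cell contraction and adhesion named in this paragraph differed between genotypes by more when the cells had received the drug. For most of the 40 listed genes the difference did not pass.

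The promoter of Vcl is shown because the known SRF site, the CArG box, lies in it. That motif occurred in 1.63% of all windows, 1.62% of those of tested genes and 3 of 30 windows of the contractile list, those of Vcl, Cnn2 and Myl9. The stretch is Vcl (chr14:20929148-20929220, plus strand), with the match in capitals.
Vcl: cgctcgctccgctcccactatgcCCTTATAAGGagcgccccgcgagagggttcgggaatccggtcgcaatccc

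The matrix itself was lower in part. Of 39 collagen genes 5 were higher and 11 lower. Fibrillar chains Col11a1 (-1.44 ± 0.17), Col5a2 (-0.79 ± 0.19) and Col3a1 (-0.43 ± 0.15) and the basement membrane chain Col4a5 (-0.70 ± 0.10) fell in the authors' deposited table, while Col20a1 (1.61 ± 0.20) and Col18a1 (0.43 ± 0.12) rose. The main chain of type I collagen, Col1a1, was at 0.03 ± 0.17 and did not pass. Of 63 other matrix genes 8 were higher and 14 lower. Laminin Lama2 (-1.08 ± 0.16), the TGF-beta-storing gene Ltbp1 (-0.51 ± 0.09), fibrillin Fbn1 (-0.46 ± 0.14) and the cross-linking enzyme gene Lox (-0.57 ± 0.18) fell in the authors' deposited table. The osteopontin gene Spp1 (1.51 ± 0.20) and the proteoglycan genes Lum (1.30 ± 0.23) and Dcn (0.69 ± 0.27) rose. Fibroblast markers were divided in the same way, with 2 higher (Lum, Dcn) and 4 lower (Prrx1, Fbn1, Col3a1, Col1a2) of 17. Vim and Pdgfra, 2 of the defining markers, did not pass.

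For enzymes that cut the matrix, the called genes leaned differently by family, with exceptions in each. Matrix metalloproteinases and their inhibitors had 7 higher and 2 lower of 18, and 9 did not pass. With vehicle the counts were 11 and 0. With Adriamycin Mmp3 (2.66 ± 0.28), Mmp13 (2.21 ± 0.21), Mmp10 (1.72 ± 0.51) and Mmp9 (1.57 ± 0.25) rose, as the authors' deposited table gives it. The membrane inhibitor gene Reck (-0.64 ± 0.16) and the metalloproteinase gene Mmp19 (-0.59) fell. ADAM and ADAMTS proteases had 2 higher and 8 lower of 26, and 16 did not pass. The 2 higher were Adamtsl5 (0.74) and Adam15 (0.25). Adamts5 (-0.99 ± 0.17), Adamts9 (-0.92 ± 0.17) and Adamts12 (-0.63 ± 0.14), which cut proteoglycans and other matrix proteins, fell in the authors' deposited table.

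TGF-beta family genes were evenly split, 12 higher and 12 lower of 52. Besides Grem1, the ligand genes Bmp2 (0.82 ± 0.25), Bmp6 (0.93 ± 0.23) and Tgfb2 (0.52 ± 0.13) rose, as the authors' deposited table gives it, and the Bmp target genes Id1 (-0.39 ± 0.09), Id2 (-0.50 ± 0.10), Id3 (-0.33 ± 0.10) and Id4 (-0.87 ± 0.14) all fell. Follistatin Fst (-1.08 ± 0.16) and the activin subunit gene Inhba (-0.69 ± 0.15) fell in the authors' deposited table. Differences between drug conditions passed for 7 genes of the list, all below 0. Inhba was at 0.08 ± 0.11 with vehicle (adjusted p 0.00169), Id2 at 0.13 ± 0.17 (0.0294) and Tgfb3 at 0.00 ± 0.09 against -0.40 ± 0.10 with Adriamycin (0.0421), in the authors' deposited tables. Among fibroblast growth factors Fgf10 fell by the most, -1.47 ± 0.20 in the authors' deposited table, with 4 higher and 4 lower of 25. Wnt genes had 8 higher and 7 lower of 54, Notch genes 5 and 4 of 19, and semaphorin, plexin and ephrin genes 10 and 8 of 49, shares near the background.

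Insulin-like growth factor and binding protein genes had 4 higher and 4 lower of 21, a share near that of all tested genes (16.6% and 16.1%), and with vehicle 5 higher and none lower. Igf1 changed sign between the drug conditions. It was lower with Adriamycin (-0.42 ± 0.13) and higher with vehicle (1.05 ± 0.16) in the authors' deposited tables, and the difference had an adjusted p of 3.83e-10. Its receptor gene Igf1r was at -0.36 ± 0.08 and 0.04 ± 0.07 in the authors' deposited tables (adjusted p 0.00691). The binding protein gene Igfbp3 rose in both, by 1.03 ± 0.12 with Adriamycin in the authors' deposited table.

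The integrated stress response slows protein synthesis when amino acids run short or proteins misfold, and its factors ATF4 and CHOP raise genes of amino acid supply. Of 46 tested genes 20 were higher and 2 lower, with a median of 0.38. Ddit3, which encodes CHOP, Atf3 (1.30 ± 0.17), Trib3 (1.03 ± 0.25) and Atf5 (1.04 ± 0.22) rose in the authors' deposited table. The amino acid transport genes Slc3a2 (0.89 ± 0.13) and Slc7a11 (0.99 ± 0.34) rose too, as did Asns (0.52 ± 0.17), which makes asparagine. Atf4, which is controlled mainly at translation, was at 0.24 ± 0.10 with an adjusted p of 0.0519 from DESeq2 in the authors' deposited table. The cytokine gene Gdf15, a target of both this response and p53, rose by 1.42 ± 0.17.

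Aminoacyl-tRNA synthetases load tRNAs. Of 36 genes 6 were higher (16.7%) and 7 lower (19.4%, or 12 under the centring), against 16.6% and 16.1% of all tested genes, and 23 did not pass. The 6 higher were genes without the suffix of the mitochondrial enzymes: Aars, Sars, Gars, Cars, Yars and Vars, from 0.22 to 0.78 in the authors' deposited table. Among the 7 lower, 5 carried that suffix, among them Hars2 (-0.56 ± 0.12), Sars2 (-0.55 ± 0.15) and Aars2 (-0.49 ± 0.15) in the authors' deposited table. Qars and Farsb were the other two. Gars also codes the mitochondrial form of its enzyme, so the suffix does not fully separate the compartments, and no split by compartment was tested.

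The unfolded protein response of the endoplasmic reticulum did not move as a block, with 5 higher and 5 lower genes of 30, or 8 lower under the centring. Its chaperone gene Hspa5 was at 0.16 ± 0.08 and Xbp1 at -0.12 ± 0.09, and neither passed. With vehicle 6 of the 30 genes were higher and 16 lower, with a median of -0.28 against 0.02 with Adriamycin. The difference between drug conditions passed for 10 of the 30 genes, all of them above 0, where 3.49% of all genes passed in that direction. The amino acid response motif TGATGCAA, either strand, occurred in 0.895% of all windows and 0.71% of those of tested genes. It occurred in 8 of 39 windows of the integrated stress response list and 4 of 26 of the synthetase list. The stretches of Atf3 (chr1:191183396-191183483, minus strand) and Slc7a11 (chr3:50443614-50443700, minus strand) are shown with matches of either strand in capitals.
Atf3: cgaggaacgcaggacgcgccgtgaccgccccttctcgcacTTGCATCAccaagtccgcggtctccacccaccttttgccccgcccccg
Slc7a11: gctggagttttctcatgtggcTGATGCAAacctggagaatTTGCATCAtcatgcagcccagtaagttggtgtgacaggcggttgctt

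Many oxidative stress genes were higher. NRF2 is the factor that raises glutathione and quinone-reducing enzymes. Of 47 tested genes of its pathway 24 were higher and 1 lower, with a median of 0.40, against 23 and 1 with vehicle. The difference between drug conditions passed for 2 of them above 0 and 3 below 0. Hmox1 (0.85 ± 0.22), which degrades haem, the glutathione synthesis genes Gclc (0.74 ± 0.15) and Gss (0.69 ± 0.14), Gpx4 (0.48 ± 0.07) and catalase Cat (0.59 ± 0.10) rose in the authors' deposited table. Nfe2l2, the gene of NRF2, rose by 0.44 ± 0.15, whereas Nqo1 (0.69 ± 0.41, adjusted p 0.193, DESeq2) and Gclm (0.33 ± 0.21) did not pass in the authors' deposited table. Peroxiredoxins and thioredoxins had 10 higher and 3 lower of 21, with Prdx1 (0.53 ± 0.08), Txn1 (0.52 ± 0.12) and Srxn1 (1.05 ± 0.33) higher in the authors' deposited table. Txnip, which binds and blocks thioredoxin, was lower with Adriamycin (-0.30 ± 0.09) and higher with vehicle (0.80 ± 0.11) in the authors' deposited tables, with an adjusted p of 5.73e-12 for the difference.

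Genes of metal storage were among the higher ones, though the lists that hold them were mixed. Metallothioneins Mt1 (1.45 ± 0.14) and Mt2 (1.34 ± 0.17), which bind zinc and copper, and the ferritin chains Ftl1 (0.66 ± 0.09) and Fth1 (0.66 ± 0.14), which store iron, rose in the authors' deposited table. Of 20 metallothionein and zinc transport genes 4 were higher and 5 lower, and of 23 iron genes 5 were higher and 1 lower. Mtf1, the factor that switches on metallothioneins, was lower (-0.32 ± 0.11, authors' deposited table). The plasma membrane zinc importers Slc39a6 (0.62 ± 0.08) and Slc39a10 (0.65 ± 0.09) rose.

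Genes known to move or metabolise the drug itself were among those that changed, 7 higher and 1 lower of 21. The carbonyl reductase genes Cbr3 (1.45 ± 0.25) and Cbr1 (0.43 ± 0.12), which reduce doxorubicin, and the efflux pump gene Abcb1a (1.05 ± 0.35) rose in the authors' deposited table. No drug level was measured. Topoisomerase genes and genes that repair their adducts had 3 higher and 2 lower of 11. Top2a, the target of the drug in dividing cells, fell (-0.85 ± 0.29), and Tdp2, which removes trapped topoisomerase II from DNA ends, rose (0.42 ± 0.11), in the authors' deposited table.

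Interferon-stimulated genes answer type I interferon, which cells release on sensing foreign or displaced nucleic acid. Signals run through factors such as STAT2 and IRF9 to effectors that block viruses. In 5 lists together 41 of 87 tested genes were higher and 4 lower, with a median of 0.58. Of the transcription factors, Stat2 (1.06 ± 0.16), Irf9 (0.81 ± 0.13) and Irf7 (1.39 ± 0.29) rose in the authors' deposited table. Among the effectors, the tethering factor gene Bst2 (2.23 ± 0.23), the ISG15 protease gene Usp18 (2.24 ± 0.26), Ifi44 (2.00 ± 0.31) and the oligoadenylate synthetase gene Oas1a (1.80 ± 0.43) rose in the authors' deposited table. The GTPase genes Irgm1 (1.26 ± 0.16), Igtp (1.64 ± 0.30) and Tgtp1 (1.93 ± 0.47) rose as well. Sensors were mixed, 4 higher and 3 lower of 15. The RNA sensor gene Ifih1 rose (0.51 ± 0.18). Tmem173, the gene of the DNA-sensing adaptor STING (-0.89 ± 0.16), and Samhd1 (-0.72 ± 0.18) fell in the authors' deposited table.

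With vehicle 66 of the 87 were higher and 3 lower, with a median of 2.05. The difference passed for 42 of them, all below 0, where 3.61% of all genes passed below 0. The changes with Adriamycin against vehicle in the authors' deposited tables were 2.00 and 5.50 for Ifi44, 1.39 and 4.61 for Irf7, and 2.24 and 5.16 for Usp18. No table sets drug against vehicle, so which genotype's level differed between the drug conditions cannot be read from them. Of the 17 macrophage and leukocyte markers none was at 0 and 14 were tested, of which none passed with Adriamycin and 8 were higher with vehicle. Lyz2 was at 0.73 ± 0.39, Cd68 at 0.24 ± 0.17 and Csf1r at -0.43 ± 0.26 with Adriamycin in the authors' deposited table, and their part in the interferon values was not tested.

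Class I antigen presentation was higher with 10 of 22 genes, and 1 was lower. Nlrc5, the transactivator of class I genes (1.76 ± 0.18), the peptide transporter gene Tap1 (0.84 ± 0.12), B2m (0.86 ± 0.12) and the heavy chain genes H2-K1 (0.94 ± 0.23) and H2-D1 (0.99 ± 0.20) rose in the authors' deposited table. The non-classical genes H2-Q6 (2.76 ± 0.39) and H2-Q7 (2.36 ± 0.31) had larger values but share much sequence, so their separate values are uncertain. The core of the interferon-stimulated response element, searched as GAAA repeated after any 2 bases on either strand, occurred in 3.44% of all windows and 3.58% of those of tested genes. It occurred in 7 of 8 windows of GBP and IRG genes, 11 of 18 of OAS, MX and restriction factors and 7 of 22 of the IFIT list. Over all genes the share was 3.64% for higher and 3.69% for lower ones. The stretches are Bst2 (chr8:71537547-71537636, minus strand), Isg15 (chr4:156200835-156200924, minus strand), Ifit1 (chr19:34640764-34640853, plus strand) and Irgm1 (chr11:48871421-48871484, minus strand), with matches of either strand in capitals.
Bst2: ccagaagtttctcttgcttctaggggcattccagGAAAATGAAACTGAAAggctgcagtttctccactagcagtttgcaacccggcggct
Isg15: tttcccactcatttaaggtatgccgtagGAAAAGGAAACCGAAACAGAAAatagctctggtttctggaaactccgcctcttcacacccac
Ifit1: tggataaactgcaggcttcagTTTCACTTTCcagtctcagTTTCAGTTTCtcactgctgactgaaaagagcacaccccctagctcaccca
Irgm1: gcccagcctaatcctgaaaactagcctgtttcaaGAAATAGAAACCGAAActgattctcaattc

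Cytokine and chemokine genes had 7 higher and 4 lower of 35. Ccl8 (2.72 ± 0.52), Spp1 and Gdf15 were higher, and Cxcl12 (-0.56 ± 0.19) and Cxcl14 (-0.95 ± 0.15) lower, in the authors' deposited table. Complement genes had 1 higher and 1 lower of 20, below the background share.

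Adriamycin is known to activate p53, and both genotypes received it here. Of 66 tested targets and regulators 34 were higher and 1 lower, with a median of 0.27, or 24 higher under the centring on abundant genes. Cdkn1a, the gene of the cell cycle inhibitor p21 (0.37 ± 0.07), the ubiquitin ligase gene Mdm2 (0.29 ± 0.09), Ccng1 (0.21 ± 0.08) and the phosphatase gene Ppm1d (0.52 ± 0.11) rose in the authors' deposited table. Trp53 itself was higher, at 0.60 ± 0.10. With vehicle the list had 49 higher and 5 lower genes and a median of 0.66. The difference between drug conditions passed for 29 genes, 26 of them below 0 and 3 above 0, Trp53 among the latter.

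Named p53 targets had smaller values with Adriamycin than with vehicle. Trp53inp1, which promotes autophagy and death, was at 0.16 ± 0.13 with Adriamycin and 1.96 ± 0.15 with vehicle in the authors' deposited tables (difference, adjusted p 3.93e-16). The death receptor gene Eda2r was at 0.04 ± 0.07 and 0.86 ± 0.08 (1.80e-10), and Cdkn1a at 1.16 ± 0.11 with vehicle (2.11e-07), in the authors' deposited tables. Ccng1 was at 0.85 ± 0.09 with vehicle in the authors' deposited table (1.06e-05). Trp53 went the other way, 0.20 ± 0.08 with vehicle (0.0239).

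Genes of cell death were called at about the share of all tested genes. BCL2 family genes had 5 higher and 1 lower of 20 (25.0% and 5.0%), or 2 and 4 under the centring. The BH3-only gene Bid (0.90 ± 0.13) and the protective gene Bcl2l1 (0.25 ± 0.08) both rose in the authors' deposited table. Bbc3 (0.28 ± 0.12) and Pmaip1 (0.40 ± 0.09) rose by small amounts, and Bax (0.11 ± 0.09) did not pass. Caspases, death receptors and their regulators had 6 higher and 4 lower of 33 (18.2% and 12.1%). Casp8 (-0.57 ± 0.12) and the nuclease inhibitor gene Dffa (-0.94 ± 0.14) fell, in the authors' deposited table.

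Few genes of the dividing cell were called higher, while the share called lower was near that of all tested genes in some lists. Of 75 tested mitosis genes 5 were higher (6.67%) and 14 lower (18.7%), with a median of -0.47. Over all tested genes the shares were 16.6% and 16.1%. Plk1 (-1.01 ± 0.40), Plk4 (-1.11 ± 0.26), Ndc80 (-1.11 ± 0.45) and the condensin gene Smc2 (-0.51 ± 0.15) fell in the authors' deposited table. The other 56 did not pass, among them Mki67, at -0.75 ± 0.55 with a mean count of 150 and an adjusted p of 0.308 from DESeq2 in the authors' deposited table. Of 58 replication genes 5 were higher (8.62%) and 15 lower (25.9%). Of 42 genes of homologous recombination and Fanconi repair 2 were higher (4.76%) and 12 lower (28.6%). The clamp loader gene Rfc4 (-0.89 ± 0.23), the ribonucleotide reductase gene Rrm1 (-0.73 ± 0.19), Brca2 (-1.25 ± 0.29) and Palb2 (-1.40 ± 0.33) fell in the authors' deposited table. End joining genes had 1 higher (5.56%) and 3 lower (16.7%) of 18, Parp1 (-0.54 ± 0.13) among the lower. DNA damage signalling had 2 higher (8.70%) and 6 lower (26.1%) of 23. Trp53bp1 (-0.57 ± 0.16), Mdc1 (-0.34 ± 0.13) and Rnf168 (-0.53 ± 0.14), which build the chromatin mark around breaks, fell in the authors' deposited table.

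With vehicle, 74 of 75 mitosis genes were lower, 50 of 58 replication genes, 31 of 42 of recombination and Fanconi repair, 17 of 23 of damage signalling and 9 of 18 of end joining. The difference between drug conditions passed for 30 mitosis genes, 9 replication genes and 6 recombination genes, all of them above 0. All 5 higher mitosis genes had been lower with vehicle. Ccnf, a cyclin that marks proteins for degradation, was at 0.97 ± 0.16 with Adriamycin and -0.70 ± 0.09 with vehicle in the authors' deposited tables (difference, adjusted p 2.90e-16). Fam83d, a spindle protein, was at 0.89 ± 0.22 and -0.89 ± 0.11 (3.18e-10). Kifc1 (3.47e-06), Spc25 (9.32e-06) and Kif18b (3.43e-05), a kinesin, a kinetochore gene and another kinesin, showed the same signs.

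These were part of 79 genes that passed the threshold in both tables with opposite signs and whose difference also passed. Of them 60 were lower with vehicle and higher with Adriamycin, and 19 the reverse. Those named here beside the mitosis genes were chosen after their values were seen. Dbf4, the activator of the replication kinase CDC7, was at 0.39 ± 0.13 with Adriamycin and -0.87 ± 0.08 with vehicle in the authors' deposited tables (difference, adjusted p 1.61e-13). Mcm7 of the replicative helicase was at 0.64 ± 0.14 and -0.26 ± 0.09 (6.71e-06). The tubulin genes Tubb5 (0.57 ± 0.09 and -0.17 ± 0.06) and Tuba1b (0.41 ± 0.09 and -0.41 ± 0.08) and the tubulin-binding gene Stmn1 (0.74 ± 0.17 and -0.65 ± 0.09) did the same in the authors' deposited tables, with adjusted p of 1.16e-08, 2.70e-08 and 3.18e-10. The histone variant genes H2afz (0.63 ± 0.11 and -0.60 ± 0.10) and H2afx (0.40 ± 0.13 and -0.35 ± 0.08) belonged to this class too, with adjusted p of 4.27e-13 and 0.000102. So did Mthfd1 of one-carbon metabolism, at 0.58 ± 0.12 and -0.37 ± 0.08 (2.42e-08), and the Notch feedback gene Nrarp, at 1.07 ± 0.28 and -1.44 ± 0.44 (0.000129), in the authors' deposited tables. In the reverse class, besides Igf1 and Txnip, were the phospholipase gene Pla2g7 (-0.43 ± 0.13 with Adriamycin, difference -1.43, adjusted p 1.29e-09) and the mitochondrial message mt-Nd5 (-0.26 ± 0.11 and 0.20 ± 0.08, 0.0154).

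**Figure D3:**
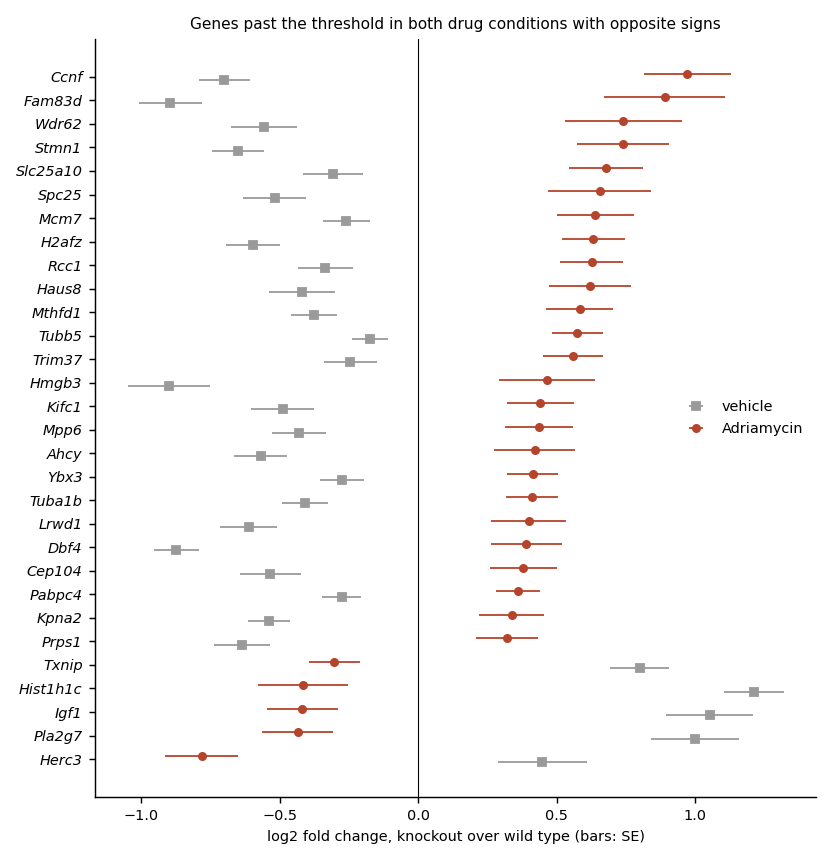
Log2 fold change, knockout over wild type, of the 30 genes with the smallest adjusted p of the difference among those past the threshold with opposite signs (predicted genes left out), with Adriamycin (red circles) and vehicle (grey squares); bars are the SE. For 25 genes, Ccnf at the top, the red value is above 0 and the grey below, and for 5 genes, Txnip to Herc3, it is the reverse.

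Histone genes were higher in 12 cases and lower in 4 of 42. Messages of replication-dependent histones lack a poly(A) tail in dividing cells, so poly(A) libraries catch only the part that carries one. Hist1h4h (1.06 ± 0.20), Hist1h2be (0.76 ± 0.14) and Hist1h2bc (0.47 ± 0.10) rose in the authors' deposited table, each by less than with vehicle, and H1f0, a linker histone of resting cells, fell (-0.81 ± 0.13). Differences passed for 16 of 38 genes, 14 of them below 0 and 2 above 0. Hist1h2bc was at 1.92 ± 0.13 with vehicle (adjusted p 5.55e-15), and Hist1h1c at -0.41 ± 0.16 with Adriamycin and 1.21 ± 0.11 with vehicle (1.61e-13), in the authors' deposited tables. Among genes of histone modifiers, no histone deacetylase or sirtuin of 18 was higher and 4 were lower, Hdac1 (-0.46 ± 0.09) among them in the authors' deposited table, and of 23 other acetyltransferase and bromodomain genes 2 were higher and 4 lower (7 lower under the centring).

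**Figure D4:**
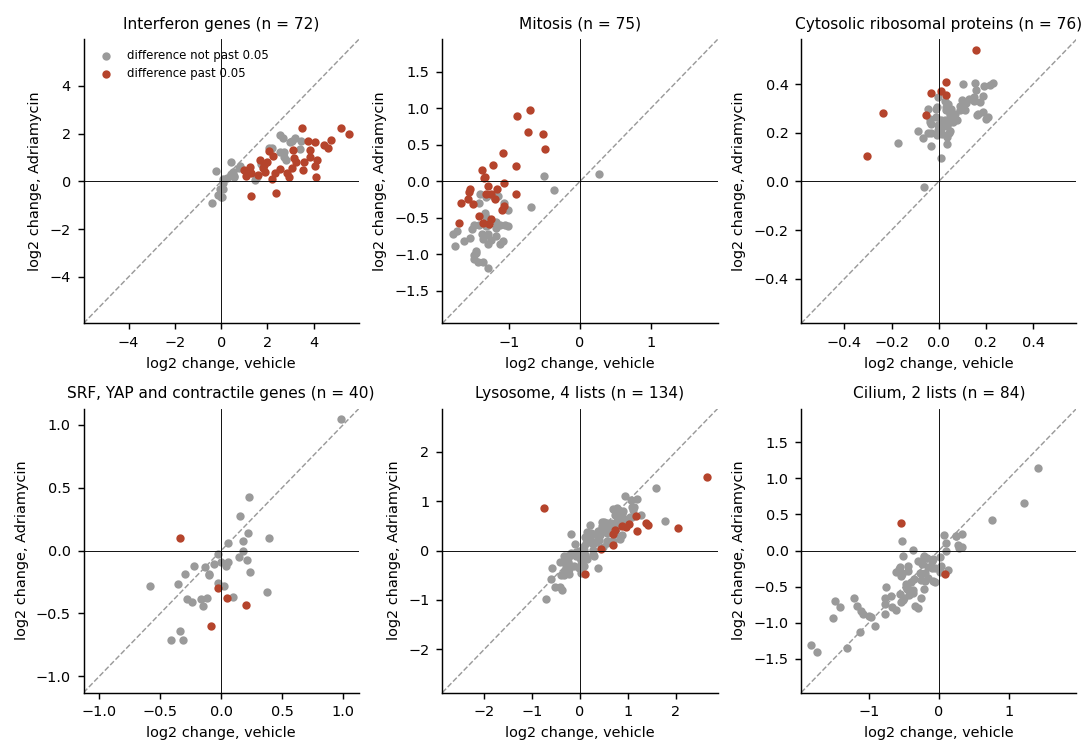
Log2 fold change of the knockout with vehicle (x axis) against Adriamycin (y axis) for the tested members of 6 sets (the interferon set holds 4 of the 5 lists, 72 genes); the dashed line marks equal changes and red points are genes whose difference passed an adjusted p of 0.05. Interferon genes lie below the line at high vehicle values, mitosis genes above it at negative vehicle values, ribosomal protein genes above it near 0 on the x axis, and lysosomal and cilium genes along it.

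With Adriamycin 222 genes were called that were not called with vehicle and that passed the test of the difference, 135 of them higher and 87 lower. Rad9a, of the clamp that signals DNA damage, was the clearest of the repair genes, at 0.88 ± 0.12 with Adriamycin and 0.15 ± 0.10 with vehicle in the authors' deposited tables (difference, adjusted p 0.000378). Of the 2306 higher genes tested in both tables, 1464 (63.5%) were also higher with vehicle, 60 lower, and 782 did not pass there. Of the 2276 lower genes 1380 (60.6%) were also lower, 19 higher, and 877 did not pass. Not passing there does not show that the effect was absent. Among 134 lysosomal genes the difference passed for 14 below 0 and 1 above 0. Gpnmb was at 2.66 ± 0.14 with vehicle (1.27e-06), Ctsd at 1.41 ± 0.10 (5.99e-10), Lamp2 at 0.47 ± 0.08 and 0.97 ± 0.08 (0.000579) and Hyal1 at 0.46 ± 0.11 and 2.05 ± 0.25 (1.13e-06), in the authors' deposited tables. The exception was the peptide transporter gene Abcb9, at 0.86 ± 0.18 with Adriamycin and -0.75 ± 0.37 with vehicle (0.00346).

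The primary cilium is a single sensory projection that resting fibroblasts raise, built by intraflagellar transport and gated by a transition zone, and Hedgehog signals pass through it. Of 84 tested genes in 2 lists 45 were lower and 4 higher, with a median of -0.39. Of 32 intraflagellar transport genes 18 were lower. Ift172 (-0.82 ± 0.12), Ift80 (-0.90 ± 0.16), Ttc21b (-0.79 ± 0.12) and Ttc26 (-1.40 ± 0.23), which carry cargo along the cilium, fell in the authors' deposited table, and the motor gene Kif17 rose (1.15 ± 0.26). Of 52 genes of the BBSome, transition zone and basal body 27 were lower. Bbs1 (-1.31 ± 0.24), Tmem67 (-1.12 ± 0.19) and Cep290 (-0.77 ± 0.14) fell in the authors' deposited table, with Tctn2. With vehicle the 2 lists had 38 lower and 3 higher genes and a median of -0.38, and the difference passed for 1 gene in each direction.

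Hedgehog pathway genes had 5 lower and 1 higher of 16. The kinesin gene Kif7 (-1.03 ± 0.19), Gpr161 (-0.78 ± 0.18) and the receptor gene Ptch1 (-0.70 ± 0.22), which is also a target of the pathway, fell in the authors' deposited table, while Smo (0.01 ± 0.10) did not pass. Centrosomal Cep genes had 11 lower and 2 higher of 29. The X-box core of the RFX factors that drive cilium genes, searched as GTTGCC followed after any 2 bases by GG, either strand, occurred in 2.25% of all windows and 3.08% of those of tested genes, in 8 of 45 windows of the BBSome list and 3 of 26 of the transport list. The stretches of Ttc26 (chr6:38381451-38381523, plus strand) and Mks1 (chr11:87853151-87853214, plus strand) are shown with the match in capitals. Mks1 was at -0.77 ± 0.23 in the authors' deposited table.
Ttc26: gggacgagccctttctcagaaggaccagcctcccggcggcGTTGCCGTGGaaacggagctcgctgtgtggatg
Mks1: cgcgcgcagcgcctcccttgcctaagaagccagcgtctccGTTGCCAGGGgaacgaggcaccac

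Zfp genes encode zinc finger proteins, many of them KRAB repressors of transposable elements. This list had the most tested members and leaned one way: of 322 tested 117 were lower and 14 higher, with a median of -0.29, and 139 were lower under the centring on abundant genes. Zfp369 (-1.11 ± 0.17), Zfp612 (-1.33 ± 0.27) and Zfp772 (-1.37 ± 0.28) fell in the authors' deposited table, and Zfp346 (0.61 ± 0.11) and Zfp385a (0.58 ± 0.11) rose. Many Zfp genes share similar exons, so reads that fit several of them may be left out or split, and single values are uncertain. The list was lower with vehicle as well, 88 genes, with 18 higher, and the difference passed for 6 genes. Hox genes, which hold positional identity, had 3 higher and 2 lower of 34, and imprinted genes 8 higher and 4 lower of 36 (9 lower under the centring), with the growth inhibitor gene Cdkn1c at 1.04 ± 0.16 in the authors' deposited table.

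Nuclear genes of the respiratory chain were lower in 21 cases and higher in 5 of 76, with a median of -0.11. Complex I made up most of it, 14 lower and 2 higher of 37, with Ndufa9 (-0.49 ± 0.08) and Ndufv1 (-0.37 ± 0.08) lower in the authors' deposited table. Complexes III and IV had 4 lower and 2 higher of 21, Uqcrb (-0.62 ± 0.11) among the lower, and ATP synthase 3 and 1 of 18, or 6 and 0 under the centring. Of 18 genes encoded in mitochondrial DNA 1 was higher and 1 lower. Glycolysis and hypoxia genes had 15 higher and 5 lower of 40. Gpi1 (0.57 ± 0.10), Tpi1 (0.40 ± 0.08), Pkm (0.41 ± 0.08) and Aldoa (0.45 ± 0.10), which are steps of glycolysis, rose in the authors' deposited table, and Pfkp (-0.54 ± 0.14) and Pfkm (-0.57 ± 0.18) fell. Fatty acid and triglyceride genes had 13 higher and 3 lower of 35. Dgat2 (1.92 ± 0.26), which makes triglyceride, Lpin1 (0.71 ± 0.09) and the lipid droplet gene Plin2 (0.68 ± 0.13) rose in the authors' deposited table. Sterol synthesis had 4 higher and 1 lower of 31, below the background share.

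Genes named as reference genes changed too: of 15 tested 6 were higher and 1 lower. Circadian genes had 6 higher and 1 lower of 21, with the output gene Dbp at 1.51 ± 0.24 and the repressor gene Nr1d1 at 0.90 ± 0.12 in the authors' deposited table. Immediate early genes had 3 higher and 5 lower of 29, Fos (-0.79 ± 0.26) and Klf2 (-0.98 ± 0.25) among the lower and Jund (0.69 ± 0.11) among the higher in the authors' deposited table. A few markers of other tissues were higher at low counts: the basal keratin gene Krt5 at 2.98 ± 0.40 (mean count 42.4) and the nerve genes Nefm (1.23 ± 0.25) and Tubb3 (1.28 ± 0.20) in the authors' deposited table. Of 7 epithelial markers 2 were higher, of 9 nerve and glia markers 4, of 6 endothelial markers 1, and of 4 skeletal muscle markers 2, with none lower in these lists. Of 8 markers of fat, cartilage and bone 2 were higher and 2 lower.

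Shares of called genes differed with 3 properties of the genes, given here as a description over genes, which are not replicates. The first was the level. In the top quintile by mean count 34.3% of genes were higher and 9.71% lower, and in the second lowest quintile 11.4% and 23.9%. The second was length. From the shortest to the longest quintile by exon length the share of higher genes went from 20.7% to 12.1% and that of lower genes from 10.9% to 22.2%, while with vehicle these shares were 18.1% and 20.9%, and 17.8% and 21.6%. Length and level are linked, but within the top quintile by level the longer genes still had 25.3% higher and 13.2% lower, against 43.3% and 6.25% for the shorter.

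The third was the X chromosome, to which the MSL complex binds in flies. Of 487 tested X-linked genes 53 (10.9%, or 35 genes under the centring) were higher and 24.0% lower, with a median of -0.16, against 16.8% and 15.8% of 13560 autosomal genes with a median of -0.01. Within classes of mean count the share of lower genes was 15.6% on the X and 8.89% on autosomes below 100, 33.6% and 22.5% from 100 to below 1000, and 16.3% and 12.2% at 1000 or more. With vehicle the X had 14.9% higher and 18.4% lower. In the authors' deposited table Fhl1, Col4a5, the sulfotransferase gene Hs6st2 (-0.82 ± 0.11) and Zmym3 (-0.90 ± 0.15) were X-linked genes among the lower, and Gla, Atp6ap2 and Prps2 (0.62 ± 0.08) among the higher. Of autosomes, chromosome 3 had 12.3% higher and 21.1% lower, and chromosome 11 had 21.4% and 11.4%, so the X was not the only chromosome to lean. Of 6 tested Y-linked genes 3 were lower, Eif2s3y (-0.42 ± 0.13), Kdm5d (-0.41 ± 0.15) and Ddx3y (-0.32 ± 0.11), in the authors' deposited table. Xist, which silences one X in female cells, had a mean count of 8.28 and lay below the authors' filter. The labels give no sex, and its part in the X-linked values was not tested.

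**Figure D5:**
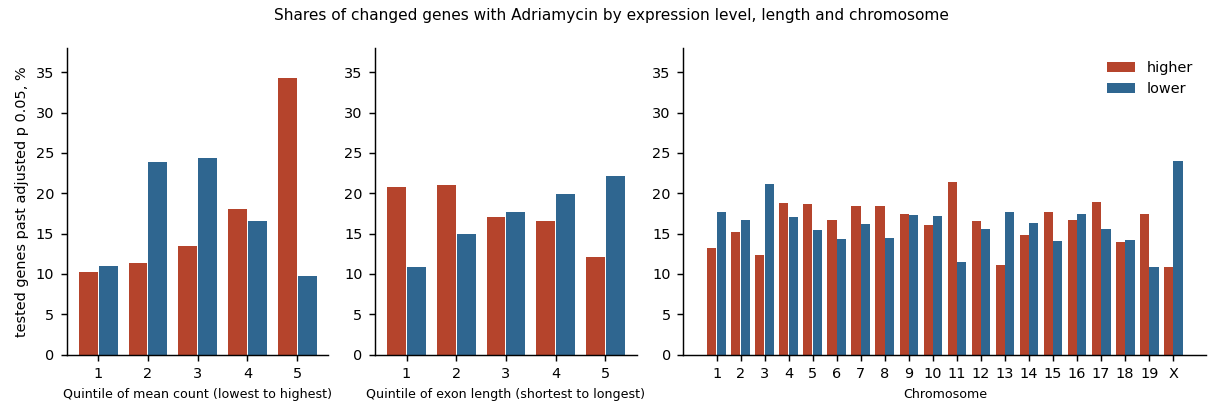
Share of tested genes with Adriamycin that were higher (red) or lower (blue) in knockout, by quintile of mean normalized count, by quintile of exon length and by chromosome. Higher genes peak in the top quintile by count at 34.3%, lower genes climb with exon length to 22.2%, and among the chromosomes drawn (autosomes and X) the X has the highest share of lower genes, 24.0%.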

How the data were processed

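RNA of 6 MEF samples given Adriamycin and 6 given vehicle was compared by genotype within each drug condition; groups were taken from the sample titles. Per the labels' protocols, RNA was extracted with the RNeasy kit and made into poly(A) libraries for Illumina sequencing. TopHat2 2.0.13, DESeq2 1.4.1, featureCounts 1.4.5-p1 and the build GRCm38 were used by the authors, per the submitters' processing notes, which give no strand setting. The signal the authors deposited is a gene's mean count over the 6 samples of a table after division by size factors. The log2 fold change and its SE were deposited by the authors. The score is the Wald statistic the authors deposited, which equals the log2 fold change over its SE. Each p-value, raw or adjusted by Benjamini-Hochberg, comes from the authors' DESeq2 fit. The version the authors used of DESeq2 shrinks fold changes by default, most at low counts. With Adriamycin the largest SE was 0.600, and the 8969 genes with a p and a mean count below 2 had absolute log2 fold changes of at most 1.42. With vehicle the largest SE was 0.710, so the degree of shrinkage may differ between the drug conditions. Any such inequality enters each difference between them and its p, and its part was not tested. The tables used here hold no value per sample, so depth per library is unknown, and a sample cannot be left out. Precision is the SE, with a median of 0.149 over tested genes.

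The difference between drug conditions was divided by the root of the summed squared SEs, with a two-sided normal p and Benjamini-Hochberg adjustment over 13973 genes tested in both tables, which share no sample. This test was also run on simulated fold changes with independent normal errors of the deposited SEs. Such data meet the assumptions of the test by design, so that run cannot show how well it holds for these samples. Coordinates, lengths and gene types came from GENCODE M21 (GRCm38), which held 14071 of the tested genes. Promoter windows of RefSeq (GRCm38.p6) were searched on both strands for 12 motifs, which may overlap: TCACGTG of the E-box kind, the amino acid response motif TGATGCAA, the cyclic AMP response element TGACGTCA, the ETS-type motif GGAAGTG, the CCAAT box as CCAATNNG, the letters TGCGCNC as well as the letters CTTTGAA, the CArG box, the antioxidant response element (TGAC and GCA with any 3 bases between) and the interferon, heat shock and X-box elements spelled out beside their results. The 88 gene lists, the motifs and the genes to name were chosen with earlier results of these data known, so no list is independent evidence. The rule named Kat8 and the MSL and NSL genes, the 15 genes in each direction with the largest Wald statistic, the 10 with the largest fold change at a mean count of at least 100, the 10 of highest mean count, up to 4 in each direction per list by adjusted p, and the largest differences between drug conditions. Not every gene of the rule is printed, and some results are not reported here. Alternatives were other adjusted p thresholds, filters on mean count, centrings of the fold change and a 2-fold minimum. Podocyte tables were not used. Python 3.11.15, pandas 2.3.3, numpy 2.4.6, scipy 1.17.1 and matplotlib 3.10.9 were used.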

Additional observations from a re-analysis of the deposited data

Results flagged for a closer look

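One kind of result was marked for a closer look: the knockout effect differed between the drug conditions by the test of the difference itself. That test passed for 487 genes with a value above 0 and 504 with a value below 0. Each value here is the knockout's log2 fold change with Adriamycin minus its value with vehicle, from the authors' deposited tables. No cause was tested, and no table sets drug against vehicle, so which genotype's level moved cannot be read from them.

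Cell division and tubulin genes had values above 0: 1.67 for Ccnf, 1.78 for Fam83d, 1.41 for Kif18b, 1.17 for Spc25, 0.93 for Kifc1, 1.26 for Dbf4, 0.90 for Mcm7, 1.39 for Stmn1, 0.82 for Tuba1b and 0.75 for Tubb5. The difference was 1.23 for H2afz, 0.75 for H2afx, 0.96 for Mthfd1 and 2.51 for Nrarp. The damage-clamp gene Rad9a was at 0.72, the lysosomal transporter gene Abcb9 at 1.62 and Trp53 at 0.40. Genes of protein synthesis and folding had smaller differences, 0.38 for Rpl12, 0.58 for Npm1, 0.51 for Eif5a and 0.36 for Hsp90ab1.

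Values below 0 came in part from genes that rose by less with Adriamycin. The interferon-stimulated genes Ifi44, Irf7 and Usp18 were at -3.51, -3.22 and -2.92, and Esr1 at -1.38. The p53 targets Trp53inp1, Eda2r, Cdkn1a and Ccng1 were at -1.80, -0.82, -0.79 and -0.64, and the lysosomal genes Hyal1, Gpnmb, Ctsd and Lamp2 at -1.59, -1.16, -0.89 and -0.50. Hist1h2bc was at -1.45. Others were lower with Adriamycin. Contraction and adhesion genes were at -0.67 (Thbs1), -0.52 (Vcl), -0.27 (Actn1), -0.43 (Tgfb1i1), -1.04 (Sync) and -0.37 (Fhl1). Growth factor and receptor genes were at -0.77 (Inhba), -0.41 (Tgfb3), -1.47 (Igf1) and -0.40 (Igf1r), and the Bmp target gene Id2 at -0.63. Txnip was at -1.10, Pla2g7 at -1.43, Hist1h1c at -1.63 and mt-Nd5 at -0.46.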

How the results depend on the processing

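Counts over all genes kept within 1.5 times of those reported, between 1657 and 2796 higher and between 1869 and 3014 lower, under the alternatives run, except 3: at an adjusted p of 0.01 1420 genes were lower, and with a minimum of 2-fold 342 were higher and 212 lower. The difference between drug conditions passed for between 378 and 616 genes above 0 and between 396 and 442 below 0 under the alternatives run, except at an adjusted p of 0.01, where the counts were 218 and 268. Fewer genes meet a stricter threshold by construction. No named gene that was called changed sign under these settings. The balance of counts did move. With centring on genes whose mean count reached 1000, 1772 genes were higher and 3014 lower, against 2342 and 2280. The BCL2 family went from 5 higher and 1 lower to 2 and 4. With adjustment over all genes with a p, Bbc3, Col1a2, Dcn, Hist1h1c, Ndc80, Plk1, Srf, Tfe3, Vars and mt-Nd5 no longer passed. With each table centred on its own median, the differences of Actn1 and Tgfb3 no longer passed (adjusted p 0.0522 and 0.0610). Of the counts per list and direction, 20 fell and 22 grew by over 1.5 times with centring on genes whose mean count reached 1000, against 9 and 2 with centring on all tested genes. No paired analysis was possible because the deposited tables hold no value per sample, and no sample could be left out for the same reason. Depth per library is unknown; genes with few reads have wide SEs, and 13293 genes with a p had no adjusted p in the authors' deposited table, so no call was made for them.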

Other observations

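Solute carriers were the largest transport family and split almost evenly, 51 higher and 43 lower of 233 tested. Among those past the threshold in the authors' deposited table were the anion exchanger gene Slc4a2 (0.67 ± 0.07), the glutamine transporter gene Slc38a3 (2.40 ± 0.31) and the phosphate importer gene Slc20a1 (0.70 ± 0.11) on the higher side. The sodium and calcium exchanger gene Slc8a1 (-1.14 ± 0.19) and the nucleotide-sugar transporter gene Slc35a3 (-0.83 ± 0.13) were on the lower side in the authors' deposited table. Kinesin genes, which encode microtubule motors, had 8 higher and 6 lower of 36, with Kif1a (0.72 ± 0.14) and Kif1c (0.37 ± 0.07) higher in the authors' deposited table. Beside Esr1, 6 further genes of the oestrogen receptor list of 17 were higher and 2 lower, among them Esr2 (0.90 ± 0.19) and Rara (0.44 ± 0.10) higher in the authors' deposited table. Histone methyltransferase and demethylase genes had 5 higher and 8 lower of 51, or 2 higher with fold changes centred on abundant genes, with Kdm6b (0.39 ± 0.10) higher and Setdb1 (-0.34 ± 0.10) lower in the authors' deposited table.

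Vascular growth factor genes had 7 higher and 3 lower of 24. Vegfb (1.03 ± 0.13) and Vegfa (0.55 ± 0.17), which act on endothelium, rose, as the authors' deposited table gives it, and the scatter factor gene Hgf (-0.82 ± 0.25) and its receptor gene Met (-0.41 ± 0.14) fell together.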
